A study of Macaca mulatta with 24 samples.

Results

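The DNA methylome of visceral fat was described in the control group *C* alone: 6 female rhesus macaques that carried cholesterol implants for 3 years and ate monkey chow. The members were the CpGs of chromosomes 1 to 20 that had a value in all 6 of these animals, C1 to C6, which left 635471 of the 841143 CpGs in the table of the whole study. The study held 24 animals in 4 groups, and the animals given testosterone, a Western-style diet or both entered no result here. The labels give an age of 4 years for every *C* animal. The methods of the study describe them as older and post-pubertal at the biopsy, and as picked to represent the metabolic findings of their group.

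Methylation of cytosine at CpG dinucleotides is a chemical mark that is copied when cells divide. Most CpGs of a mammalian genome are methylated, whereas CpG islands, the CpG-rich stretches that cover many promoters, are usually free of the mark in healthy tissue. Intermediate levels are known at imprinted loci, where the maternal and paternal copies differ, at distal regulatory elements and at sites that differ between cell types. White fat stores triglycerides in adipocytes, and a piece of omental fat also holds preadipocytes, blood vessels, mesothelium and immune cells. DNA was taken from whole tissue, so a share of methylated cells of one type and a mixture of cell types cannot be told apart in any value given here. The table holds no expression values, so markers of fat cells could not be read from it.

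Reduced-representation bisulfite sequencing (RRBS) reads DNA fragments cut by MspI, an enzyme that cleaves CCGG, and so favours CpG-rich sequence. Bisulfite turns unmethylated cytosine into a base read as T and leaves methylated cytosine as C. The level of a CpG is the percentage of its reads that were methylated. The read counts behind the levels are not in the table, so the depth of each level is unknown beyond the coverage minimum of 10 reads that the authors set, and no interval was made from reads. Run summaries that the study lists for its libraries did not enter the present values. Over chromosomes 1 to 20, the share of the table's CpGs without a value ran from 1.64% in C3 to 8.70% in C5, with a median of 2.90%. Positions are those listed in the table, on the rheMac8 build, whose sequence and gene annotation were not used here, so the regions named carry no gene.

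Most CpGs stood near one end of the scale. The mean level was 48.7% ± 0.364 (SD, n = 6), with 49.4% in C1, 48.8% in C2, 48.4% in C3, 48.8% in C4, 48.5% in C5 and 48.4% in C6. C1 was the highest, and the other animals lay within a narrow band below it. That mean described few CpGs: 41.0% ± 0.250 (SD, n = 6) lay under 20%, 39.2% ± 0.863 (SD, n = 6) lay over 80%, and 5.64% ± 0.295 (SD, n = 6) lay between 40 and 60%. Under 5% lay 33.4% ± 0.278 of CpGs and over 95% lay 19% ± 1.31 (both SD, n = 6). The unmethylated end was therefore the tighter of the ends. In each of the 6 animals, the bin from 0 to 5% held a larger share than that from 95 to 100%. The next bins went the other way, with 3.56% to 4.55% at 5 to 10% and 8.59% to 10.6% at 90 to 95%.

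**Figure D1:**
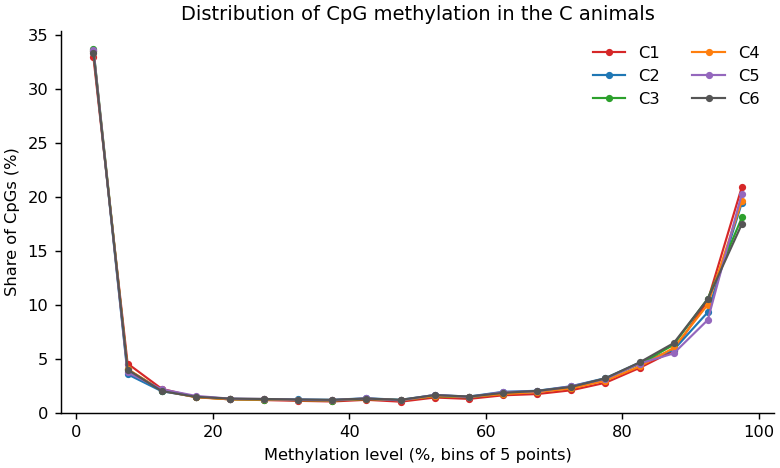
Share of the 635471 CpGs (percent, y axis) in each bin of 5 points of methylation level (percent, x axis), 1 line for each of the animals C1 to C6. Each line has a peak at either end, and CpGs from 40 to 60% make up 5.10% to 5.90% of each animal's CpGs.

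Exact end values varied more between the animals than the broad classes did. A level of exactly 0 was listed at 22.1% (C1) to 28.3% (C5) of CpGs, with a median of 24.3%. A level of exactly 100 was listed at 7.18% (C3) to 13.3% (C5), with a median of 9.72%. C5, the animal with the most missing values, was the highest for both. A CpG read at low depth reaches 0 or 100 more easily, and the part of depth in these shares was not tested.

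The animals largely shared the sites. Every *C* animal was under 20% at 234262 CpGs (36.9%), and every one was over 80% at 176493 CpGs (27.8%). At 67213 CpGs (10.6%) the level was exactly 0 in each of the 6 animals. An animal under 20% together with another over 80% was found at 4849 CpGs (0.763%). Across all CpGs, Pearson's r between animals ran from 0.954 (C2 and C5) to 0.971 (C3 and C6) over the 15 pairs of animals, which is a description since CpGs are not independent replicates. Among the 126510 CpGs of mean level 20 to 80%, r was lower, from 0.504 (C1 and C2) to 0.657 (C1 and C4).

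CpGs with complete values had lower levels than those without. The 154897 CpGs of chromosomes 1 to 20 that lacked a value in at least 1 *C* animal were measured in part in each animal, from 86167 of them in C5 to 141952 in C3. Over its own set, the mean level was 55.9% in C2, the lowest animal, and 62.4% in C5, the highest, with a median of 56.9%. The sets differ: at the 86167 CpGs of C5, the mean of the other animals was 62.8%. Within animals the incomplete CpGs stood 9.02 points above the members (SD 2.59, n = 6), higher in 6 of 6 animals (two-sided exact sign-flip test, p = 0.03125). This p is the smallest that 6 animals can give. Outside the members, chromosome X had a mean level of 55.9% ± 0.723 (SD, n = 6), and the 17601 complete CpGs on unplaced scaffolds had 62.2% ± 0.804 (SD, n = 6).

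The level fell steeply with the number of CpGs measured nearby. The genome was divided into fixed windows of 1 kb, and each CpG was placed by the number of member CpGs in its window, which depends on MspI fragments and on coverage as well as on sequence. CpGs in windows with 1 to 4 measured CpGs had a mean level of 72.8% ± 0.502 (SD, n = 6), from 72.3% to 73.6%. With 5 to 9 the mean was 59.8% ± 0.368, with 10 to 19 it was 32.4% ± 0.267, with 20 to 39 it was 14% ± 0.312 and with 40 to 59 it was 9.55% ± 0.618 (SD, n = 6). The animals did not overlap between any neighbouring pair of these classes. The level in windows with 40 or more CpGs minus that in windows with 1 to 4 was -62.3 points (SD 0.491, n = 6), negative in 6 of 6 animals (two-sided exact sign-flip test, p = 0.03125).

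The classes differed in how their CpGs were split between the ends of the scale. By the mean of the 6 animals, 60.2% of CpGs in the sparsest class lay over 80% and 11.2% under 20%. In windows with 20 to 39 CpGs, 9.24% lay over 80% and 82.8% under 20%. The share at 20 to 80% was 28.5% in the sparsest class, 6.62% at 40 to 59 CpGs and 14.9% at 60 or more.

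**Figure D2:**
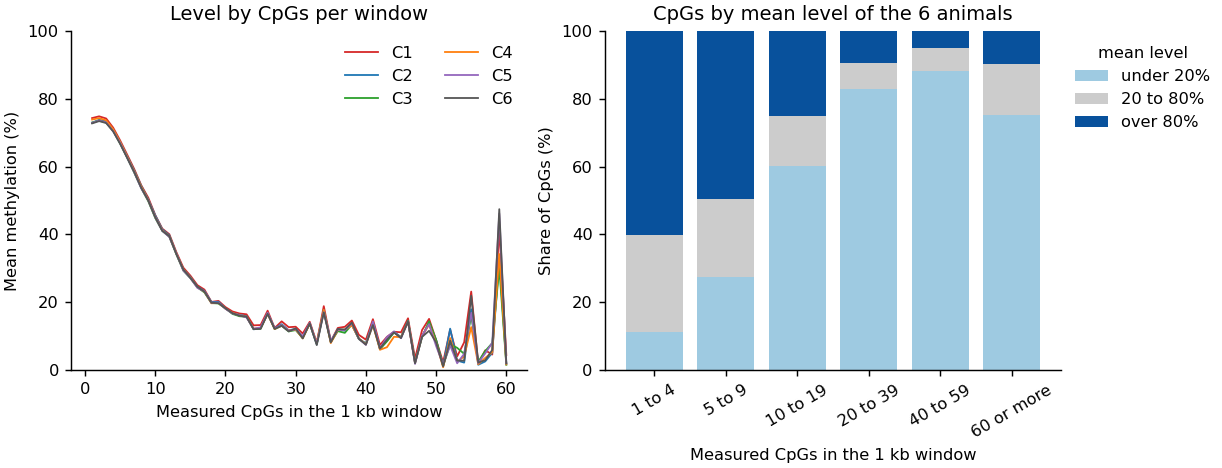
Left, mean methylation (percent) of CpGs by the number of measured CpGs in their 1 kb window, 1 line for each animal; right, share of CpGs (percent) whose mean over the 6 animals lay under 20%, at 20 to 80% or over 80%, by class of window. The left lines lie together, fall after the first few counts and become uneven at the right, where few windows stand behind each point.

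Sparse windows were the more numerous. Of 126120 windows with any member CpG, 82453 (65.4%) held 1 to 4 CpGs and 15828 (12.6%) held 10 or more. Averaged over windows instead of CpGs, the mean level was 64.9% ± 0.455 (SD, n = 6), against 48.7% over CpGs. Of the 15828 fuller windows, 10077 (63.7%) had a mean under 20%, 2324 (14.7%) lay at 20 to 80% and 3427 (21.7%) lay over 80%. A window mean in the middle could come from CpGs at both ends: 551 of those 2324 windows (23.7%) held both CpGs under 20% and CpGs over 80%.

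By the class mean, the windows with most CpGs were not the least methylated. The 25 windows with 60 or more CpGs had a mean level of 18.3% ± 1.77 (SD, n = 6), from 16.2% in C3 to 21% in C1, above the 9.55% of the class before. Of the 25 windows, 17 had a mean under 10%, 19 under 20%, 4 at 20 to 80% and 2 over 80%. Both highly methylated windows were chr19:53567001-53568000, with 63 CpGs at 98.0% to 98.5%, and chr8:143347001-143348000, with 62 CpGs at 84.2% to 89.8%. The window chr10:88747001-88748000, with 66 CpGs, had 59.95% to 62.4% in the 6 animals, an intermediate level shared by all of them. In contrast, chr16:67932001-67933000, with 68 CpGs, ran from 19.7% in C3 and 21.5% in C6 to 47.9% in C1 and 48.0% in C2, with C4 and C5 between them.

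Regions were then named by a rule on the windows with at least 10 member CpGs: most CpGs, highest, lowest, steadiest at mid level and most variable, 3 of each. The window with most CpGs was chr7:16605001-16606000, whose 89 CpGs had a mean of 5.29% ± 1.01 (SD, n = 6). It was unmethylated in each animal, from 4.39% in C4 to 7.18% in C2, and 85 of its CpGs lay under 20%. The next, chr8:1755001-1756000 with 83 CpGs, had 16.6% in C1 and 6.08% to 8.65% in the other animals. In chr19:51010001-51011000, with 78 CpGs, the animals were spread from 6.80% in C3 to 28.0% in C4, with 22% in C1, 22.1% in C2, 13.9% in C5 and 14.3% in C6.

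The highest mean was in chr12:10109001-10110000, whose 12 CpGs stood at 99.4% ± 0.228 (SD, n = 6), followed by chr3:57911001-57912000 with 98.8% ± 0.677 over 10 CpGs and chr10:6137001-6138000 with 98.7% ± 0.930 over 11 CpGs (both SD, n = 6). At the other end, the 10 CpGs of chr1:94541001-94542000 were listed at 0 in all 6 animals. In chr16:29123001-29124000, with 20 CpGs, and in chr19:34045001-34046000, with 12 CpGs, 5 animals were listed at 0 and C3 at 0.185% and 0.238%. Near the upper end, C5 alone reached 100%, in chr10:6137001-6138000, and the other values of the 3 highest windows were 97.7% to 99.7%.

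Unmethylated CpGs formed runs, most of them of up to 1 kb. A run was a stretch of measured CpGs that each had a mean under 10% and a gap of at most 1 kb to the next. There were 23936 runs, of which 8557 held 10 or more CpGs, with a median length of 478 bp. Lengths over 1 kb were reached by 1634 runs, over 2 kb by 157 and over 3 kb by 15. The longest was chr8:26069658-26073993, 4336 bp with 38 CpGs, and its animals lay between 2.42% (C5) and 3.82% (C6). Next came chr18:6045368-6049444, 4077 bp with 47 CpGs at 0.451% to 1.23%, and chr15:39821422-39825349, 3928 bp with 53 CpGs at 0.924% to 1.76%. CpGs between the measured ones were not seen, so a run says nothing of the sequence in its gaps.

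Close CpGs had close levels, and the likeness decreased over a few kilobases. The mean absolute difference between CpGs 2 to 10 bp apart was 5.03 points ± 0.278 (SD, n = 6). It was 6.55 at 11 to 75 bp, 8.30 at over 150 and up to 300 bp, 12.3 at over 300 bp and up to 1 kb, and 24.7 at 1 to 2 kb, and reached 38.2 at 5 to 10 kb, against 44.9 for pairs 1 Mb apart. Pairs 2 to 75 bp apart, which a read of 75 bp can span, differed by 5.98 points in C6, the lowest animal, and 6.84 points in C5, the highest, with a median of 6.19. Pairs 1 to 2 kb apart differed by 24.3 to 25.2 points, so the animals did not overlap between the distances. The nearer minus the farther value was -18.4 points (SD 0.117, n = 6), negative in 6 of 6 animals (two-sided exact sign-flip test, p = 0.03125).

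The correlation of levels followed the same course. Pearson's r across pairs was 0.961 at 2 to 10 bp, 0.777 at over 300 bp and up to 1 kb, 0.529 at 1 to 2 kb, 0.191 at 5 to 10 kb and 0.00422 at 1 Mb, each the mean of the 6 animals. Pairs share CpGs and reads, so these values are descriptions. A switch from under 20% at one CpG to over 80% at the other was found in 0.402% of pairs 2 to 10 bp apart, 3.18% at over 300 bp and up to 1 kb, 11.6% at 1 to 2 kb and 29.0% at 1 Mb. Of the steps from one measured CpG to the next, 74.9% were 2 to 75 bp and 16% were over 1 kb.

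The deviations of an animal from the others were also alike between neighbours. The deviation of an animal at a CpG was its level minus the mean of the other 5 animals. For pairs 2 to 75 bp apart, r of the deviations was 0.313 ± 0.0615 (SD, n = 6), with 0.434 in C1, 0.295 in C2, 0.289 in C3, 0.304 in C4, 0.260 in C5 and 0.294 in C6. C1 stood above the other animals, which lay close together. The mean r was 0.156 at over 150 and up to 300 bp, 0.0407 at 1 to 2 kb and 0.00772 at 5 to 10 kb. Over the same 1 to 2 kb, r of the levels was still 0.529. Near CpGs often lie on the same reads and can share counting error, and the part of this in the r of deviations was not tested.

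**Figure D3:**
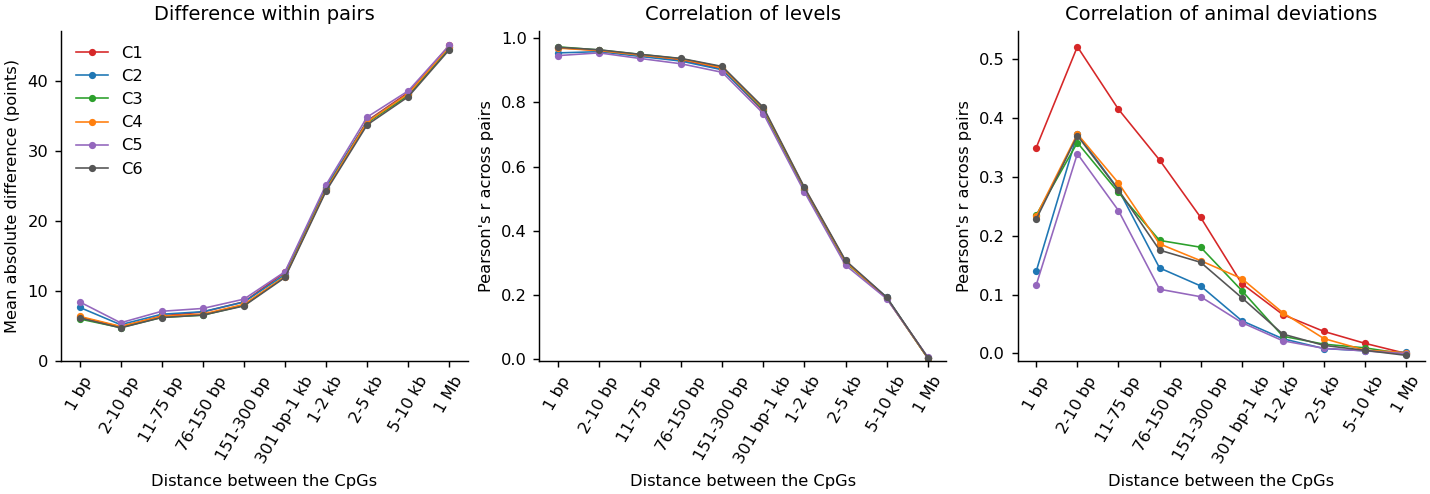
Pairs of CpGs by distance (x axis), 1 line for each animal: mean absolute difference of levels (points, left), Pearson's r of levels (middle) and Pearson's r of the animal's deviations from the mean of the other 5 (right). The 6 lines lie together in the left and middle panels, while in the right panel C1 is the highest at each distance up to 300 bp.

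Pairs 1 bp apart are the cytosines on opposite strands of a CpG, which are covered by separate reads. There were 6813 such pairs, and their levels differed by 6.86 points ± 0.999 (SD, n = 6). More of these CpGs lay in the middle of the scale than of the pairs 2 to 10 bp apart, so both were compared again where each CpG of the pair had a mean of 20 to 80%, a choice made after the values had been seen. In those 1310 pairs of strands the difference was 13 points ± 2.10, and in 24545 pairs 2 to 10 bp apart it was 12.8 points ± 0.816 (SD, n = 6). The gap of 0.166 points between them (SD 1.36) was positive in 2 of 6 animals (exact sign-flip test, p = 0.8125). The deviations behaved otherwise: their r was 0.299 ± 0.109 between the strands and 0.622 ± 0.0457 (SD, n = 6) at 2 to 10 bp, lower between the strands in 6 of 6 animals (exact sign-flip test, p = 0.03125). CpGs on the same reads can share counting error and CpGs on separate reads do not, and the part of this in the difference was not tested.

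Mean levels differed more between chromosomes than between animals. Each chromosome was compared within each animal with the other autosomes together. By an adjusted p under 0.05 (exact sign-flip test, Benjamini-Hochberg), 18 of 20 chromosomes (90%) were called, 8 higher and 10 lower, each in the same direction in 6 of 6 animals and each with an adjusted exact p of 0.0347. The chromosome means spanned 10.8 points and had an SD of 2.92 points, whereas the SD between animals of a chromosome mean was 0.238 to 0.485 points. With so small a spread between animals, even differences under 0.3 points were called, so the sizes say more than the calls. The test weighs the spread between animals at the same CpGs. It does not weigh which CpGs of a chromosome were measured, and the SDs of the differences leave that out as well. No chromosome could be called without any 1 of the animals, since the smallest exact p from 5 animals is 0.0625.

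Chromosome 18 was the highest in 6 of 6 animals, from 54.6% to 55.2% with a median of 54.8%, and stood 6.24 points above the other autosomes (SD 0.151, n = 6). Chromosome 3 followed with 52.5% to 53.7% (4.49 points above, SD 0.0898), then chromosome 20 with 52.1% to 53.0% (3.91 above, SD 0.106) and chromosome 10 with 51.8% to 53.0% (3.77 above, SD 0.0954). Chromosome 7 was the lowest in 6 of 6 animals, from 43.7% to 44.6% with a median of 43.9%, and its difference from the other autosomes was -5.02 points (SD 0.0480, n = 6). The difference was -4.10 points for chromosome 2, -3.30 for chromosome 6, -3.21 for chromosome 4 and -2.15 for chromosome 1. Chromosome 9 differed by 0.141 points, positive in 5 of 6 animals, and chromosome 19 by -0.134 points, negative in 5 of 6, and neither was called. In the order of the means, 12 of the 19 neighbouring pairs kept their order in all animals. The order was mixed in 7 pairs: 20 and 10, 8 and 12, 9 and 19, 19 and 5, 5 and 11, 13 and 16, and 4 and 6.

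The split of CpGs over the scale differed between chromosomes. On chromosome 18, 34.9% of CpGs had a mean under 20% and 47.1% a mean over 80%. On chromosome 7 those shares were 46.7% and 35.5%. Intermediate CpGs made up 18.1% and 17.8% on these. Over the 20 chromosomes, chromosome 10 had the largest intermediate share, 24.4%, and chromosome 2 the smallest, 14.3%, while 40.7% and 38.4% of their CpGs lay over 80%.

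Part of the order changed with the number of CpGs per window. When each chromosome was given the same mix of window classes, 19 of 20 were called, 9 higher and 10 lower, and 16 were called on the same side in both comparisons. Chromosome 18 was still the highest, 5.08 points above (SD 0.147), and the range of the differences was 9.0 points, beside 11.3 points without this step. The lowest was now chromosome 2 at -3.92 points (SD 0.101), with chromosomes 4 and 7 at -3.902 and -3.895. Chromosome 19, which holds 23.2% of its CpGs in windows with 1 to 4 CpGs, the smallest such share, went from -0.134 to 2.14 points (SD 0.163). Chromosome 11, at 32.7% one of the larger shares, went from -0.279 to -2.44 points (SD 0.0621). The shift did not follow that share throughout. Chromosome 13, with the largest share, 32.95%, went from -0.842 to -1.33 points. Chromosome 2, at 31.2%, moved the other way, from -4.10 to -3.92 points. Chromosomes 5 and 9 also changed sign, to 0.455 and -0.165 points. Chromosome 12 was not called after this step (0.211 points above, adjusted exact p = 0.0625).

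**Figure D4:**
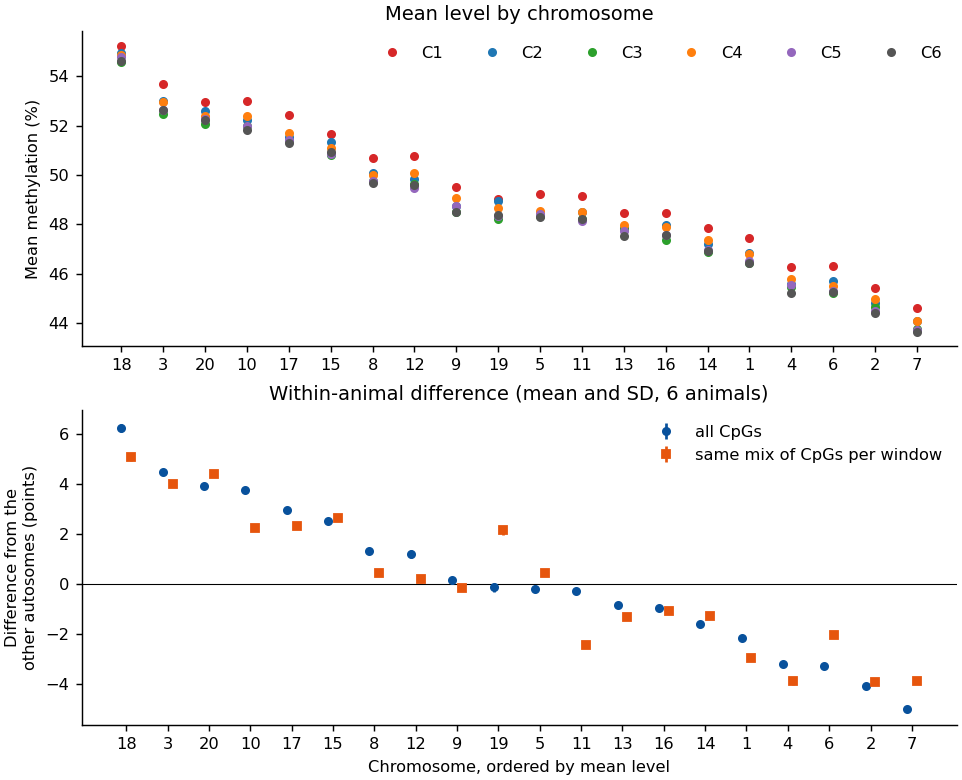
Top, mean methylation (percent) of each chromosome in each of the 6 animals, with chromosomes ordered by their mean; bottom, within-animal difference of a chromosome from the other autosomes (points, mean and SD over 6 animals) over all CpGs and with the same mix of window classes. Chromosome 18 is at the top in both, 6.24 and 5.08 points above, and chromosome 19 moves from -0.134 to 2.14.

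Position along the chromosome went with the level as well. The 87175 CpGs within 2 Mb of the outermost measured CpGs of their chromosome had a mean of 58.5% ± 0.449, and those farther in had 47.2% ± 0.353 (SD, n = 6). The animals did not overlap, with 58.2% to 59.3% near the ends and 46.9% to 47.8% farther in. This split was chosen after other values had been seen and was given no test.

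The animals differed most at CpGs in the middle of the scale. The median SD between the 6 animals was 1.11 points at CpGs with a mean of 0 to 10%, 7.79 at 10 to 20%, 12.7 at 40 to 50%, 7.67 at 80 to 90% and 3.79 at 90 to 100%. The outermost bins differed between the ends of the scale, while those at 10 to 20% and 80 to 90% had nearly the same median. At 40 to 50% the CpGs themselves varied widely, with a 10th percentile of 6.95 points and a 90th percentile of 23.2. A percentage has more counting error in the middle than at the ends, and its part in this pattern was not tested because the read counts were not at hand.

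To keep the animal that was measured out of the level class, its distance from the median of the other 5 animals was taken where that median lay at 40 to 60% and where it lay under 10% or over 90%. The scatter was 13.2 points ± 1.18 at the middle and 2.92 points ± 0.252 at the ends (SD, n = 6). At the middle it ran from 11.8 points in C3 to 14.4 in C1, with a median of 13.4, and at the ends from 2.69 in C3 to 3.31 in C5. The difference was 10.2 points ± 1.03 (SD, n = 6), positive in 6 of 6 animals (two-sided exact sign-flip test, p = 0.03125). On the arcsine square root scale it was 3.44 degrees ± 0.557 (SD, n = 6), again positive with an exact p of 0.03125.

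Scatter at the middle was also compared between classes of windows. It was 12.9 points ± 1.12 in windows with 1 to 4 CpGs, 13.4 ± 1.2 with 5 to 19 and 13.2 ± 1.41 with 20 or more (SD, n = 6). The first of these minus the last was -0.350 points (SD 0.391, n = 6), from -0.935 to 0.213 and negative in 5 of 6 animals (two-sided exact sign-flip test, p = 0.09375).

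Spread between the animals was also taken over window means. In the 15828 windows with 10 or more CpGs, the median SD between animals was 1.10 points, with 0.562 where the mean was under 20%, 5.59 at 20 to 80% and 2.16 over 80%. An SD over 10 points was found in 420 of these windows (2.65%) and over 15 points in 102 (0.644%). C1 had the highest level in 34.3% of the 420 variable windows and in 24.5% of all 15828, against at most 18.1% and 17.7% for any other animal. C1 and C4 together held the highest levels in 22.4% of the variable windows and in 10.8% of all.

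In the variable windows named by the rule, animals lay far apart. In chr3:184983001-184984000, with 12 CpGs, the levels were 23% in C1, 70.9% in C2, 84.4% in C3, 24.8% in C4, 14.8% in C5 and 90.1% in C6. C2, C3 and C6 were high and C1, C4 and C5 were low, with no animal between 24.8% and 70.9%. In chr12:63123001-63124000, with 12 CpGs, C1 had 79.3% and C4 had 62.7%, while the other animals lay at 12.7% to 17.2%. In chr6:120538001-120539000, with 12 CpGs, C1 had 78.3%, C4 had 65.9% and C2 had 41.5%, and the other animals lay at 12.6% to 21%. C1 and C4 were thus the high pair in both of the latter windows. None of the CpGs in these 3 windows had genotype-like levels, which were defined as a span of at least 40 points with each animal within 10 points of 0, 50 or 100.

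Mid-level windows could also be steady. The steadiest, chr20:2246001-2247000 with 11 CpGs, had 43.1% ± 0.324 (SD, n = 6), but 6 of its CpGs lay under 20% and 5 over 80%, with 1 change between them along the window. In chr15:10969001-10970000, with 12 CpGs at 59.4% ± 0.866 (SD, n = 6), 3 CpGs lay under 20%, 5 over 80% and 4 between. A different makeup was seen in chr1:328001-329000, with 32 CpGs at 47.0% ± 1.06 (SD, n = 6) and 45.3% to 48.1% in the animals. There 24 of the 32 CpGs lay at 20 to 80%, 10 of them at 40 to 60%, so the intermediate level belonged to single CpGs and not only to their average.

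**Figure D5:**
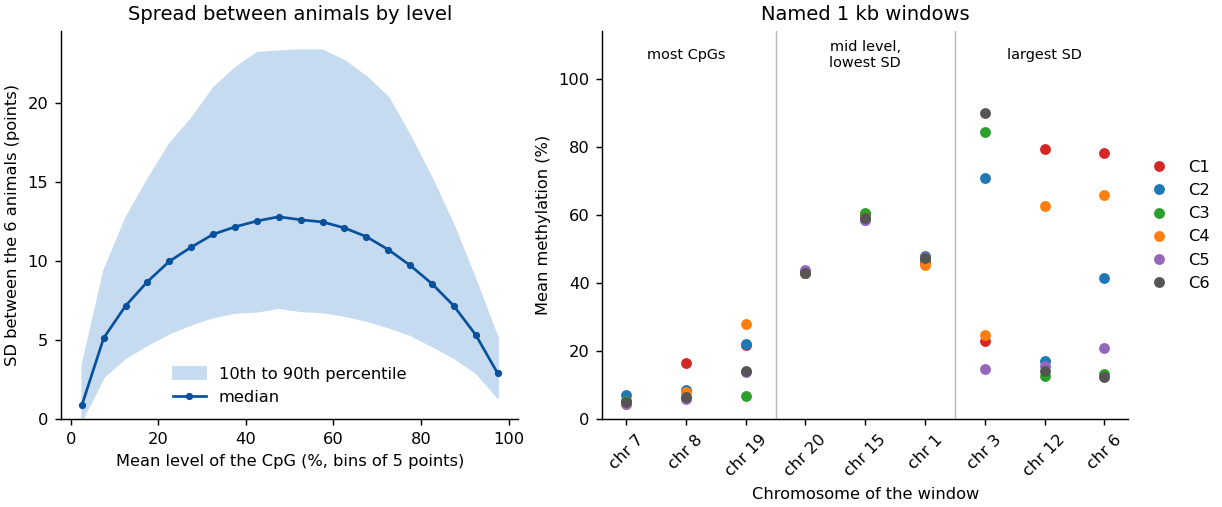
Left, SD between the 6 animals (points) of a CpG by its mean level (percent, bins of 5 points), as the median with the 10th to 90th percentile; right, mean methylation (percent) of each animal in the 9 windows named for most CpGs, steady mid level or largest SD. The median SD has its top at 12.8 points, in the bin from 45 to 50%, and C1 and C4 sit above the other animals in the last 2 windows.

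Levels that look like genotypes were few. A sequence variant that destroys a CpG can be read as a lower level in its carriers. The genotype-like pattern was found at 3174 CpGs (0.499%). An SD over 20 points was found at 17531 CpGs (2.76%), and 11.9% of these were genotype-like. Animals were not genotyped in the data used here, so the part of sequence variants was not tested. Leaving the genotype-like CpGs out changed the scatter difference from 10.2 to 10.01 points.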

How the data were processed

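Omental white adipose tissue DNA was measured by RRBS in 24 animals, and the 6 libraries of the *C* group, each from a separate animal, were used. Per the labels and the methods, the authors trimmed reads with Trim Galore 0.4.2, aligned them to rheMac8 with Bismark 0.16.1, and kept CpGs covered by at least 10 reads in at least 4 of 6 animals of each group. The deposited values are methylation in percent for each CpG and animal, unscaled. Read counts are not in the table, so the depth and the counting error of a level are unknown, and the per-library statistics of the study were not used here. No column of values was without a sample label (0 columns). An arcsine square root scale was tried as an alternative here.

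Levels were averaged over CpGs in each animal, and the animal was the replicate. Within-animal differences were tested by flipping their signs in all 64 ways (two-sided, exact), with Benjamini-Hochberg adjustment over the 20 chromosomes. Windows of 1 kb started at position 1. Chromosome levels were standardised by weighting each of the 6 window classes by its share of CpGs over all chromosomes. Named windows held at least 10 members and were the 3 with most CpGs, the highest mean, the lowest mean, a mean of 40 to 60% with the lowest SD, or the largest SD, beside the 3 longest runs under 10%. Members, classes and rules were chosen with earlier results of these data known. Python 3.11.15, numpy 2.4.6, pandas 2.3.3, scipy 1.17.1, numba 0.67.0, matplotlib 3.10.9, R 4.3.3 and limma 3.58.1 were used. The scripts were tested on simulated data. Alternatives were incomplete CpGs, merged strands, genotype-like CpGs left out, each animal left out, other limits, grids and scales, and limma for the chromosomes. Gene names and sequences were not used because the annotation at hand was of another build.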

Additional observations from a re-analysis of the deposited data

Results flagged for a closer look

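Of 69 groups of 6 values examined, 13 had an animal far from the others by Dixon's criterion, and chance alone gives about 1 in 20 groups, or 3.45. The groups share CpGs, and some are windows chosen for an extreme mean or SD, to which that rate does not apply, so 3.45 is no yardstick for the 13. C1 was that animal in 6 of them. It was the highest at CpGs where the median of the other animals lay under 5%, with 1.80% against at most 1.42%. In windows with 20 to 39 CpGs it had 14.6% against at most 13.9%, and in windows with 40 or more it had 11.8% against at most 10.5%. Its deviations were the most alike between neighbours, with r of 0.522 at 2 to 10 bp and 0.434 at 2 to 75 bp, against at most 0.373 and 0.304. In chr8:1755001-1756000 it had 16.6% against at most 8.65%.

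C5 was far from the others in 3 groups. The CpGs with a missing *C* animal had 62.4% in C5 against at most 58.0%, and their excess over the complete CpGs was 13.9 points against at most 9.24. These means are over different CpGs, 86167 in C5 and 107399 to 141952 in the others, and at the CpGs measured in C5 the mean of the other animals was 62.8%. In chr20:2246001-2247000 it had 43.8% against at most 43.2%, a gap of under 1 point. C4 had the widest dense minus sparse difference, -63.2 points against -62.3 in the next animal. C2 had 7.18% in chr7:16605001-16606000 against at most 5.31%. C3 had 0.185% in chr16:29123001-29124000 and 0.238% in chr19:34045001-34046000, where the other animals were listed at 0.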

How the results depend on the processing

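Of 35 alternatives other than leaving out an animal, 29 left a value within its SD, a test on its side of the threshold or the chromosome count within 1.5 times, and the dense minus sparse, near minus far and scatter differences kept their sign and their call. In the other 6 a share or mean moved by more than its SD. With CpGs that had a value in at least 4 of 6 animals, the mean level was 50.1%, the share under 20% was 39.5% and the share over 80% was 40.6%. With windows weighted equally the mean level was 64.9%. The share under 10% was 37.4% and that over 90% was 28.7%. By construction these ask for other CpGs, weights or limits. The chromosome count was 17 with incomplete CpGs, 19 with the same mix of window classes and 20 by limma, and with the same mix chromosome 12 lost its call and chromosomes 5, 9 and 19 changed sign (to 0.455, -0.165 and 2.14 points). Without each animal in turn, the mean level was 48.6% to 48.8%, the share under 20% was 40.9% to 41.0%, the share over 80% was 38.9% to 39.3%, and the r of deviations was 0.280 (without C1) to 0.328. The dense minus sparse difference was -62.4 to -62.1 points, the near minus far difference was -18.5 to -18.4 points and the middle minus end scatter was 9.75 to 10.4 points. With 5 animals the smallest exact p is 0.0625, so these tests could not pass and the chromosome count was 0 each time. Animals could not be paired across groups because a single group was used and its animal numbers occur in no other group. Depth was limited by the absence of read counts, so a higher coverage minimum was not tried.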

Other observations

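Animals also differed in how many windows they held alone. A window with 10 or more CpGs in which an animal lay over 10 points above every other animal was counted 189 times for C1, 75 times for C2, 43 times for C5, 27 times for C4, 26 times for C6 and 22 times for C3. The other animals were all under 20% in 92 of the 189 windows of C1, 20 of the 75 of C2, 11 of the 43 of C5, 8 of the 27 of C4, 6 of the 26 of C6 and 5 of the 22 of C3, and 63.7% of all windows with 10 or more CpGs had a mean under 20%. Over 10 points below every other animal lay C5 in 52 windows, C1 in 43, C6 in 40, C4 in 35, C2 in 33 and C3 in 29. In these, the other animals were all over 80% in 15 windows of C5 and 4 of C1. That number was 3 for C6, 2 for C4, 6 for C2 and 5 for C3. Of all windows with 10 or more CpGs, 21.7% had a mean over 80%. In the 2324 windows of mean level 20 to 80%, r of the deviations of 2 animals from the mean of the remaining animals was 0.552 for C1 and C4 and at most 0.412 (C2 and C6) for any other of the 15 pairs, with the lowest at -0.115 (C1 and C2). Both deviations subtract the same mean of 4 animals, so unrelated animals of equal spread would give an r of 0.2 and not 0. These counts were chosen after the values had been seen, and neither kinship, cell makeup nor depth was tested.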
